A study of Mus musculus with 20 samples.

Results

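KSL cells were compared with lineage-negative cells (LinNeg below), both sorted from C57BL/6 mice, on 4 of the 20 Affymetrix Mouse Genome 430 2.0 arrays of a series on haematopoietic cells. The 4 arrays were chosen by their sample titles, 2 titled as KSL cells and 2 as Lineage marker(-) cells, and each title names a biological replicate, 1 or 2. The other 16 arrays hold 8 mature populations (B, CD4T, CD8T, NK, NKT, Erythroblast, Neutrophil and Monocyte, 2 arrays each). They served to estimate the spread between replicates and as a reference for where a gene is expressed. Per the labels' protocols, total RNA was isolated with ISOGEN, and biotin-labelled cRNA was amplified in 2 cycles starting from RNA of 3000 cells. No treatment or genetic change is named for any group, and the sources used here do not give the tissue, the age of the mice, the gates of the sort or how many animals made up a replicate.

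KSL is the field's name for cells that carry Kit and Sca-1 and lack the markers of mature lineages. This small fraction of the bone marrow holds the haematopoietic stem cells together with multipotent progenitors. The lineage-negative fraction is broader. It lacks the markers of mature cells but includes the committed erythroid, myeloid and megakaryocyte progenitors, most of which carry Kit without Sca-1, and by the usual definition it includes the KSL cells too. A difference between both fractions is thus a difference between a part and the mixture it is drawn from. Fewer cells of a type and less RNA per cell of that type cannot be told apart in such bulk samples.

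The array values are intensities on a linear scale, 1 per probe set, and each gene is represented by the probe set with that gene symbol alone that is brightest on average over the 20 arrays. Values of replicates 1 and 2 are given in that order throughout. Differences are KSL minus LinNeg on the log2(intensity + 6.75) scale with their standard errors (n = 2 arrays per fraction), so that 1 is a 2-fold change for a bright gene and the change of a dim gene is understated. A gene is said to be higher, lower, up or down between the fractions where its Benjamini-Hochberg adjusted p in limma was under 0.05 and its difference at least 1 in size. The labels do not say whether the replicates came from separate animals, so the p-values measure the spread between these arrays, part of which may be technical.

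The genes of the sort and the lineage markers came first, to check the labels. Kit, the receptor for stem cell factor, read 1204 and 1397 in KSL and 752 and 726 in LinNeg, against 195 or less in every array of the mature populations, and did not pass the test between both fractions (difference 0.81 ± 0.36, adjusted p = 0.2). The Sca-1 gene Ly6a was not analysed here, nor were the lineage genes Ly6g, Ly76 and Klrb1c. Of the lineage genes, Cd4 read from 3.96 to 6.40 and Itgam, which encodes Mac-1, from 0.449 to 12.9 over the 4 arrays. Cd3e was less dim, from 5.18 to 63.4, with the highest value in LinNeg replicate 2. Cd8a read 62.2 and 53.9 in KSL and 84.2 and 91.3 in LinNeg, while a second probe set of it read 11.3 or less. Slc4a1, the band 3 anion exchanger of red cells, read 1.91 and 6.36 in KSL and 5.33 and 137 in LinNeg, against 9866 and 7598 in the Erythroblast arrays. Ptprc, the pan-leukocyte antigen CD45, read from 1295 to 1751 in all 4 arrays. The array medians were 22.9 and 22.3 in KSL and 20.5 and 23.2 in LinNeg. The 3′ to 5′ ratio of the Gapdh control probe sets, which rises as cRNA gets shorter, was 4.81 and 3.43 in KSL and 4.31 and 3.67 in LinNeg, higher in both replicate 1 arrays. Across 14044 genes the log2 values correlated with r = 0.966 between the KSL arrays, 0.965 between the LinNeg arrays and 0.915 to 0.939 between the fractions (genes are not independent replicates).

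Of the 14044 genes tested, 745 (5.30%) were called between KSL and LinNeg, 415 of them (2.95%) higher in KSL and 330 (2.35%) lower. The median difference over all genes was 0.0092. The largest falls exceeded the largest rises. Jchain, the joining chain of secreted immunoglobulin A and M, had the largest fall at -7.30, and Fgd5, a guanine nucleotide exchange factor used to mark stem cells, had the largest rise at 3.49. Both KSL arrays lay above both LinNeg arrays in 3934 genes (28.0%) and below them in 3608 (25.7%), so that 53.7% of all genes separated the fractions without overlap. Of 1415 genes that differed by at least 1, 670 did not pass the test.

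**Figure D1:**
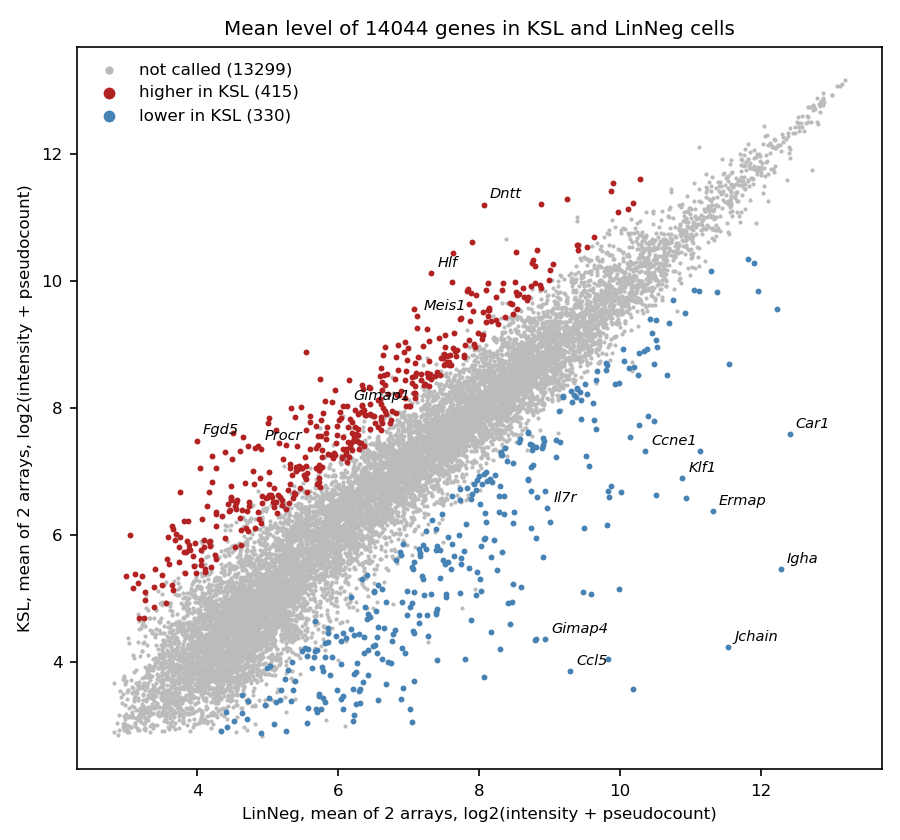
Mean log2 level of each of 14044 genes in the 2 LinNeg arrays (x axis) and the 2 KSL arrays (y axis), both as log2(intensity + 6.75). The 415 genes called higher in KSL are red, the 330 called lower are blue, and the lower right, where LinNeg is bright and KSL dim, holds Igha, Jchain, Car1, Ermap and Ccl5.

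The counts rested on the arrays unequally. Without KSL replicate 2 the calls fell to 294 (115 higher and 179 lower), and without LinNeg replicate 1 to 357 (117 and 240). Without KSL replicate 1 they were 627 and without LinNeg replicate 2 they were 660. Of the 415 higher calls, 94 were kept without KSL replicate 2 and 109 without LinNeg replicate 1, and of the 330 lower calls, 166 and 211 were kept. No called gene changed sign when an array was left out. The KSL replicate 2 array was the brighter of the KSL pair in 333 of the 415 genes called higher, against 7067 of all 14044 genes, and LinNeg replicate 1 was the dimmer of its pair in 334, against 7584 of all genes. In the 330 genes called lower, KSL replicate 1 was the brighter of its pair in 239, against 6977 of all 14044 genes. LinNeg replicate 2 was the brighter of its pair in 195 of the 330, against 7584 of all genes. Of 139 called genes that belong to a list or are named for their size, 71 were called again whichever of the 4 arrays was left out, and 13 were called in none of these fits. A gene is said to lose its call where such a fit did not call it, and these genes are given with each group. Some genes, such as Flt3, Tie1 and Tfrc, belong to more than 1 list and count in each, so the counts of the lists are not independent. A call counted in an earlier list is not always named again. The shares of all genes called higher (2.95%) and lower (2.35%) and of genes with KSL wholly above (28.0%) or below (25.7%) LinNeg are the background for every count of members that follows. The lists were chosen with earlier results of these data known. A count above its background may thus be partly built into the choice, and it is a description and not a test of the list.

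Transcription factors that maintain haematopoietic stem cells were higher in KSL as far as they passed the test: 7 of the 24 tested, where 2.95% of all genes were, with none lower and a median difference of 0.94. In 17 of the 24 both KSL arrays lay above both LinNeg arrays, as they did in 28.0% of all genes. Hlf, a bZIP factor that marks the most primitive cells, read 748 and 1631 in KSL and 99.2 and 233 in LinNeg (2.80 ± 0.56, adjusted p = 0.004). The brighter array of each pair was replicate 2, and the groups did not overlap. In the mature populations Hlf was at most 108.

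Meis1, a homeobox partner of the HOXA proteins, read 613 and 775 in KSL and 84.5 and 206 in LinNeg (2.32 ± 0.39, adjusted p = 0.00088). Erg, an ETS factor needed for stem cell self-renewal, read 549 and 661 against 111 and 158 (2.13 ± 0.35, adjusted p = 0.00079). Both calls held without any of the 4 arrays. Erg was also bright outside KSL, at 404 to 657 in the Neutrophil and Monocyte arrays. Hmga2, a chromatin protein of fetal and self-renewing stem cells, read 213 and 222 against 45.5 and 73.5 (1.79 ± 0.37, adjusted p = 0.0051). Mycn rose by 1.78 ± 0.43, the zinc finger factor Zfp521 by 1.67 ± 0.49, and the ETS repressor Etv6 by 1.23 ± 0.30 (adjusted p = 0.015, 0.041 and 0.013). A second probe set of Etv6 differed by 0.05, at 43.2 and 51.5 in KSL and 40.6 and 50.7 in LinNeg.

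Of the 7 calls, 5 were kept without KSL replicate 1, 2 without KSL replicate 2, 2 without LinNeg replicate 1 and 6 without LinNeg replicate 2. Hlf lost its call without KSL replicate 2 (adjusted p = 0.097) and without LinNeg replicate 1 (adjusted p = 0.093), as did Hmga2 (0.062 and 0.1) and Mycn (0.21 and 0.19). Etv6 lost its call without these arrays and without KSL replicate 1 (adjusted p from 0.076 to 0.14), and Zfp521 without each of the 4 arrays (adjusted p from 0.087 to 0.28). Hoxa9 read 1953 and 2166 in KSL and 664 and 661 in LinNeg, a difference of 1.62 ± 0.63 with an adjusted p of 0.13. Lyl1 passed the p threshold with a difference just under 1 (0.98 ± 0.24, adjusted p = 0.016). Tal1, a master factor of blood formation, had a difference of -0.18 ± 0.43, Bmi1 of 0.12 ± 0.22 and Gfi1 of -0.13 ± 0.30. The probe sets of Mecom, a zinc finger factor of stem cell maintenance, disagreed in size. The one used here read 24.95 and 12.9 in KSL and 6.97 and 6.20 in LinNeg, a difference of 0.90. A second one read 431 and 659 against 18.2 and 45.3, a difference of 3.90 without a test of its own, which exceeds the largest rise of the genes as tested. Prdm16 gave opposite signs in 2 probe sets (-0.62 and 1.80).

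Surface, niche and other marker genes of stem cells showed the same direction in more members: 11 of 26 tested were higher in KSL, none was lower, and the median difference was 1.09. Fgd5 read 123 and 239 in KSL and 6.77 and 11.9 in LinNeg (3.49 ± 0.50, adjusted p = 0.00022), and it was 38.8 or less in every mature array. Procr, the endothelial protein C receptor used to sort stem cells, read 109.5 and 236 against 15.97 and 30.6 (2.53 ± 0.53, adjusted p = 0.0055). Both genes were brighter in replicate 2 of each fraction, and neither overlapped between the fractions. Tie1, a receptor tyrosine kinase of endothelium and stem cells, read 29.8 and 40.8 in KSL, 1.03 and 2.84 in LinNeg and at most 4.73 in the mature arrays (2.27 ± 0.40, adjusted p = 0.0015).

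Angpt1, which encodes the ligand of the related receptor Tek, read 1182 and 1636 in KSL and 252 and 515 in LinNeg (1.93 ± 0.39, adjusted p = 0.0044). Tek itself read 68.3 and 73.6 against 26.4 and 34.5 and did not pass (1.07 ± 0.43, adjusted p = 0.15). Vldlr, a receptor for apolipoprotein E, had the largest rise in this group after Fgd5, at 366 and 588 in KSL and 22.8 and 66.4 in LinNeg (3.34 ± 0.65, adjusted p = 0.0033). Ndn, an imprinted growth suppressor, read 112 and 231 against 21.2 and 17.9 (2.68 ± 0.46, adjusted p = 0.0011). The other calls of the group were Mamdc2 at 3.09, the sulfotransferase Sult1a1 at 2.39, the adhesion molecules Esam at 2.30 and Alcam at 1.80, and the transglutaminase Tgm2 at 1.52.

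Only 3 members were called without KSL replicate 2, and 3 without LinNeg replicate 1, against 10 without either of the other arrays. Fgd5, Tie1 and Ndn kept their calls without any of the 4 arrays. Procr lost its call without KSL replicate 2 (adjusted p = 0.12) and without LinNeg replicate 1 (adjusted p = 0.093). So did Vldlr, Mamdc2, Sult1a1, Angpt1, Alcam and Tgm2, with adjusted p from 0.062 to 0.19 without the first and from 0.068 to 0.16 without the second. Esam lost its call without each of the 4 arrays (adjusted p from 0.087 to 0.2). Cd34, the sialomucin by which KSL cells are further split, read 1785 and 2149 in KSL and 595 and 741 in LinNeg, without overlap, and missed the threshold (1.55 ± 0.50, adjusted p = 0.065). Slamf1, the SLAM family marker CD150, read 82.9 and 103 against 49.0 and 46.7 (0.86 ± 0.34, adjusted p = 0.14). Cxcr4, which holds stem cells in the marrow, had a difference of -0.28 ± 0.17 and the platelet adhesion protein Vwf one of 0.20 ± 0.52.

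**Figure D2:**
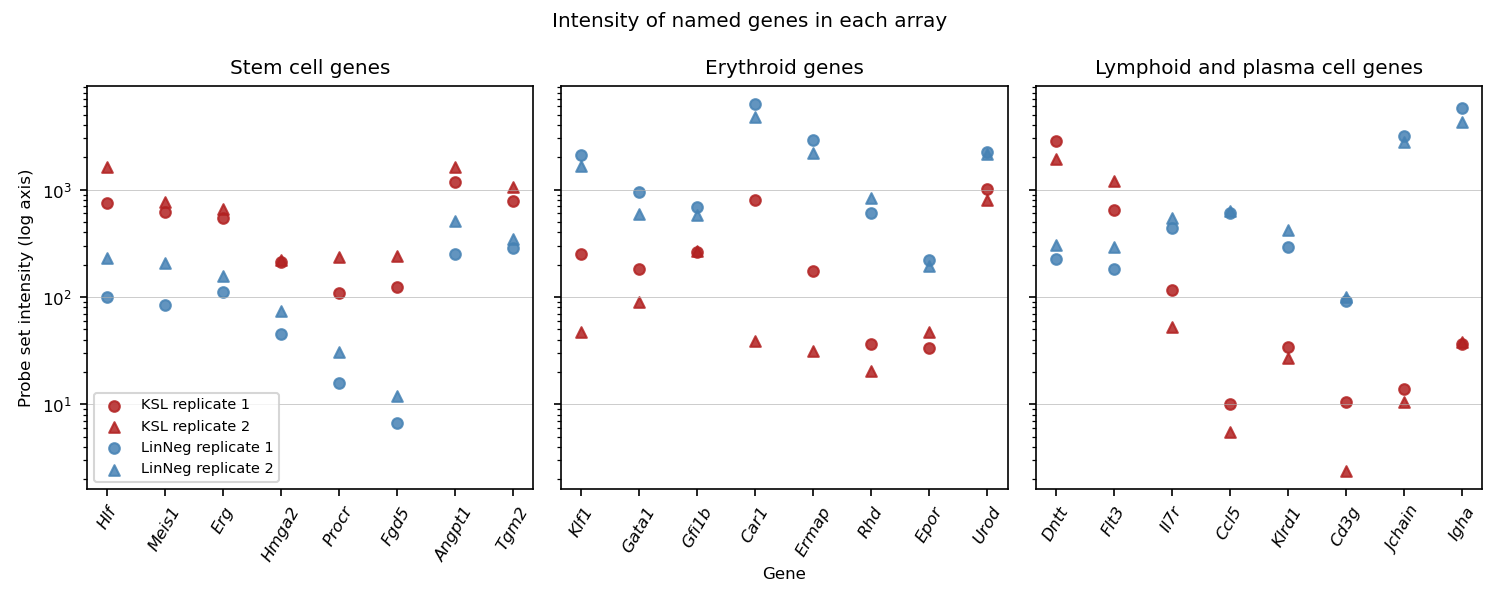
Intensity (log axis) of 24 genes in each of the 4 arrays, with KSL in red, LinNeg in blue, replicate 1 as circles and replicate 2 as triangles. KSL lies above LinNeg in all 8 stem cell genes and below it in all 8 erythroid genes, while in the third panel it lies above in Dntt and Flt3 and below in the other 6 genes. All 24 were picked among the called genes, so these directions follow from the choice, and members that were not called are not shown.

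Beyond these lists, the largest rises included genes of metabolism, secretion and the matrix. Col4a1, a chain of basement membrane collagen, read 120 and 173 in KSL and 6.94 and 18.1 in LinNeg (3.03 ± 0.42, adjusted p = 0.00016), and was the only called gene of 15 matrix genes tested. Its partner chain Col4a2, encoded next to it, read 87.2 and 76.7 against 14.2 and 29.3 and did not pass (1.69 ± 0.56, adjusted p = 0.071). Ctla2b, a relative of the propeptides that inhibit cathepsins, read 1733 and 1088 against 178 and 204 (2.81 ± 0.32, adjusted p = 2.6e-05). The NK and NKT arrays read from 1076 to 1793 for the same probe set. Cadps2, which primes secretory vesicles, rose by 2.89, the surface protein Cdcp1 by 2.82, the uridine phosphorylase Upp1 by 2.91, the transporter Slc16a12 by 3.01, Myl10 by 2.76, Maged1 by 2.71 and Wfdc17 by 2.71. Col4a1, Ctla2b, Cadps2, Cdcp1 and Maged1 kept their calls without any of the 4 arrays, while Slc16a12 and Myl10 lost theirs without KSL replicate 2 (adjusted p = 0.1 and 0.2) and LinNeg replicate 1 (0.055 and 0.11), and Upp1 without LinNeg replicate 1 (adjusted p = 0.054). Wfdc17 rested on LinNeg replicate 1, at 13.7 against 132 in LinNeg replicate 2, and without that array its adjusted p was 0.47. It was 0.13 without KSL replicate 1 and also without KSL replicate 2.

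Genes of early lymphoid priming were split in direction, with 3 of 16 higher, 1 lower and a median difference of 0.33. Dntt, the terminal transferase that adds bases at antigen receptor joins and marks the lymphoid-primed part of the multipotent progenitors, read 2864 and 1917 in KSL and 225 and 303 in LinNeg (3.13 ± 0.63, adjusted p = 0.004). No mature array read above 70.3. Flt3, the receptor of the same progenitors, read 651 and 1201 against 182 and 290 (1.91 ± 0.57, adjusted p = 0.043). Satb1, a chromatin organiser of the lymphoid lineage, rose by 1.01 ± 0.21 (adjusted p = 0.0047).

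Il7r, the receptor chain that marks committed lymphoid progenitors and T cells, went the other way, at 116 and 52.5 in KSL and 442 and 550 in LinNeg (-2.55 ± 0.40, adjusted p = 0.00054). The recombinase genes Rag1 and Rag2 were at 17.6 or less in all 4 arrays, and the B lineage factor Ebf1 at 6.33 or less. Without LinNeg replicate 1 none of the 3 rises was called (Dntt adjusted p = 0.057, Flt3 0.32, Satb1 0.12), while Il7r kept its call without any of the 4 arrays. Flt3 lost its call without each of the 4 arrays (adjusted p from 0.059 to 0.36), and Satb1 also without KSL replicate 2 (adjusted p = 0.055). Notch1 passed the p threshold with a difference of 0.83 ± 0.24.

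Among 29 receptors for growth factors and cytokines, 3 were higher in KSL, 4 were lower, and the median difference was 0.36. Besides Flt3, the interleukin-1 receptor Il1r1 read 116 and 194 in KSL and 8.83 and 21.4 in LinNeg (2.91 ± 0.56, adjusted p = 0.0029), and Il4ra rose by 1.20 ± 0.33 (adjusted p = 0.032) with a second probe set at -0.19. The erythropoietin receptor Epor read 33.4 and 46.9 against 219 and 194 (-2.20 ± 0.40, adjusted p = 0.0017). Il2rb, a receptor chain of NK and T cells, read 1.22 and 1.69 against 28.8 and 55.8 (-2.52 ± 0.39, adjusted p = 0.00043), and Il18r1 fell by 1.07 ± 0.32 (adjusted p = 0.044). Without KSL replicate 2, and likewise without LinNeg replicate 1, none of the 3 rises was called (Il1r1 adjusted p = 0.062 in both, Il4ra 0.16 and 0.44). Il4ra was not called without KSL replicate 1 either (adjusted p = 0.12). Il18r1 lost its call without each of the 4 arrays (adjusted p from 0.072 to 0.32). The receptors Csf3r, Csf2ra and Csf2rb of myeloid growth factors had differences of 1.15 ± 0.54, 0.57 ± 0.28 and 0.05 ± 0.33.

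Erythroid genes were the largest group on the LinNeg side. These genes are switched on by the factors GATA1 and KLF1 as progenitors commit to the red cell lineage, well before the surface marker Ter119 appears. Of 26 membrane, globin and surface genes tested, 16 were lower in KSL, where 2.35% of all genes were, none was higher, and the median difference was -2.22. Their summed intensity was 5841 and 4842 in KSL and 23845 and 22695 in LinNeg. Between 13 and 15 members were called when any of the 4 arrays was left out.

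Klf1, the erythroid Krüppel-like factor, read 253 and 47.5 in KSL and 2111 and 1670 in LinNeg (-3.99 ± 0.48, adjusted p = 4.9e-05). Gata1 read 183 and 90.0 against 946 and 595 (-2.48 ± 0.43, adjusted p = 0.0011), and Gfi1b 261 and 269 against 689 and 581 (-1.23 ± 0.34, adjusted p = 0.031). These were the 3 calls among 16 erythroid transcription factors, whose median difference was -0.21. Klf1 and Gata1 kept their calls without any of the 4 arrays, while Gfi1b lost its call without each of them (adjusted p from 0.085 to 0.24). Factors that stem cells and erythroid cells share did not follow them. Lmo2 read 2865 and 2726 in KSL and 1687 and 1684 in LinNeg (0.73 ± 0.35), Nfe2 had a difference of 0.98 ± 0.29 and Zfpm1, the cofactor of GATA1, one of -0.41 ± 0.30.

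Ermap, a red cell membrane protein, read 173 and 31.1 in KSL and 2911 and 2219 in LinNeg (-4.95 ± 0.59, adjusted p = 4.7e-05). Car1, the carbonic anhydrase of erythroid progenitors, read 793 and 38.9 against 6238 and 4730 (-4.83 ± 0.84, adjusted p = 0.0013). Rhd, a Rhesus blood group protein, read 36.5 and 20.5 against 604 and 829 (-4.38 ± 0.38, adjusted p = 9.9e-07). In each, KSL replicate 1 was the brighter KSL array, and no KSL array came near the LinNeg arrays. The other differences were -5.80 for Cldn13, -3.89 for the biliverdin reductase Blvrb, -3.84 for the blood group protein Kel, -3.71 for Tspo2, -3.67 for the water channel Aqp1, -3.53 for Rhag, -3.39 for Tspan33, -2.86 for the ankyrin Ank1, -2.25 for Mns1, -2.24 for Epb42, -2.15 for the transferrin receptor Tfrc and -1.40 for the adducin Add2. Add2 lost its call without each of the 4 arrays (adjusted p from 0.052 to 0.16), Epb42 lost its call without KSL replicate 2 and LinNeg replicate 2 (adjusted p = 0.084 and 0.1), and Mns1 without KSL replicate 2 and LinNeg replicate 1 (adjusted p = 0.087 and 0.088). Among the globin genes, Hbb-bh1 read 16.01 in LinNeg replicate 2, and its other 3 values and those of Hbb-y and Hba-a1 were 6.79 or less. The Hba-a1 probe set was at 49.3 or less in the Erythroblast arrays.

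The order of LinNeg and Erythroblast was not the same for all erythroid genes, as a description of the levels. Car1 was brighter in LinNeg than in the Erythroblast arrays (2243 and 3267). Klf1 read 10148 and 7915 in Erythroblast, Ermap 10978 and 8264, and Rhd 11052 and 8328, all far above LinNeg. The late gene Slc4a1 was bright in Erythroblast alone, and Alas2, the erythroid enzyme that starts heme synthesis, read 21.3 or less in all 4 arrays.

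Heme synthesis followed the erythroid genes, with 6 of 12 members lower, none higher and a median difference of -1.27. Urod, which decarboxylates uroporphyrinogen, read 1022 and 800 in KSL and 2268 and 2170 in LinNeg (-1.29 ± 0.17, adjusted p = 9.6e-05). Fech, the enzyme that inserts the iron, read 272 and 270 against 595 and 795 (-1.32 ± 0.22, adjusted p = 0.00085). The other calls were the porphyrin transporter Abcb6 at -2.14, Alad at -1.80, Cpox at -1.72 and Uros at -1.29. The count was 4 without KSL replicate 2, where Alad and Uros lost their calls (adjusted p = 0.1 and 0.068; Alad 0.059 without LinNeg replicate 2), and 8 without KSL replicate 1. Of 12 genes of iron handling, 3 were lower: Tfrc, the iron exporter Slc40a1 (47.3 and 39.3 against 474 and 477, -3.27 ± 0.69, adjusted p = 0.0054) and the heme-binding protein Hebp1 (-2.91 ± 0.41, adjusted p = 0.00018). Slc40a1 had an adjusted p of 0.063 without KSL replicate 2.

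Promoters of 3 of these genes show the short GATA motif, and they are printed for that reason. Each run holds the 250 bases before the gene start, 5′ to 3′ on the strand of the gene, from RefSeq on GRCm38.p6, with the motif on either strand in capitals.
Klf1: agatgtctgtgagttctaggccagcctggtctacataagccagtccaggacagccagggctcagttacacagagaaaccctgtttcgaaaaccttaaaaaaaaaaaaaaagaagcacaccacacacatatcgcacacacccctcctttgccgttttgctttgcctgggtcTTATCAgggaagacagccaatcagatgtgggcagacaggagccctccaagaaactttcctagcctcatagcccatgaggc
Ermap: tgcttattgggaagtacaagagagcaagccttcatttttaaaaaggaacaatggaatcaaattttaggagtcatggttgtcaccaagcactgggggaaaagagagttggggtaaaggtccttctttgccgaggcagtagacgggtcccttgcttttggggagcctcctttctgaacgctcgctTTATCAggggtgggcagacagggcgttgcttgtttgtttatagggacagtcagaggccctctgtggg
Rhd: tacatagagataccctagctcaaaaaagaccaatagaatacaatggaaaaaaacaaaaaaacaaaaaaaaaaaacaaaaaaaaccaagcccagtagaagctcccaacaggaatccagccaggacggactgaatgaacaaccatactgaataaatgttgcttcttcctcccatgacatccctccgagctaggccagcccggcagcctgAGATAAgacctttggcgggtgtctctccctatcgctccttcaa
They lie at chr8:84901732-84901981 on the plus strand, chr4:119189996-119190245 on the minus strand and chr4:134864286-134864535 on the plus strand. The match begins 80, 67 and 43 bases before the gene start. The search was for AGATAA or TGATAA on both strands in 300 bases, 250 before to 50 after the start, of 27025 genes with a promoter in the table, and 21.0% of them hold a match. Among the erythroid and heme genes with a promoter 19 of 46 (41.3%) hold one, which is 10 of 21 that were called and 8 of 22 that were tested and not called. A match is a description of the letters and not a binding site, and no array bears on binding.

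The largest falls of all were in antibody and lymphocyte genes, although both fractions are negative for lineage markers. Igha, the constant region of immunoglobulin A, read 36.1 and 38.2 in KSL and 5811 and 4268 in LinNeg (-6.83 ± 0.36, adjusted p = 6.6e-10). Jchain read 13.8 and 10.4 against 3138 and 2777 (-7.30 ± 0.89, adjusted p = 5.3e-05), and the light chain segment Igkv8-30 read 13.3 and 0.333 against 1051 and 1267 (-6.61 ± 0.59, adjusted p = 1.3e-06). The Igha probe set was at 59.4 or less in every mature array, those of B cells included, so LinNeg alone of the 10 populations was bright. Antibody segments resemble each other, and the probes of Igkv8-30 can take up related segments.

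Among 16 genes of plasma cells, the antibody-secreting cells, 4 were lower in KSL, none higher, and the median was -0.32. Jchain and Igha were joined by Mzb1, a chaperone of antibody assembly (19.8 and 20.2 against 85.2 and 72.5), and the elongation factor Ell2 (137 and 128 against 319 and 383), both of which lost their calls without KSL replicate 2 (adjusted p = 0.059 and 0.058). Mzb1 also lost it without LinNeg replicate 1 (adjusted p = 0.082). The defining factor Prdm1 read from 17.9 to 23.6 over the 4 arrays, Irf4 11.8 or less in all 4 arrays, and the surface marker Sdc1 64.1 and 66.2 against 42.1 and 46.0. Xbp1, the secretory factor, was at 1456 to 1727 in all 4 arrays. Of 19 B cell genes none was called with limma and 4 had an unadjusted p under 0.05, where 2.95% of all genes were higher and 2.35% lower, and their summed intensity was 2152 and 2233 in KSL and 1809 and 2521 in LinNeg. Without KSL replicate 1 limma called 1 B cell gene higher. Whether plasma cells in the sort played a part in these falls was not tested.

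NK and cytotoxic genes had 12 of 25 members lower in KSL, none higher, and a median of -1.32. Ccl5, a chemokine of cytotoxic and memory T cells, read 10.1 and 5.49 in KSL and 607 and 633 in LinNeg (-5.45 ± 0.29, adjusted p = 6.6e-10), against 4458 to 8523 in the NK and NKT arrays. Klrd1, the CD94 receptor chain, read 34.5 and 27.1 against 290 and 422 (-3.26 ± 0.46, adjusted p = 0.00022). Xcl1 fell by 2.65, the factor Tbx21 by 2.62, Klre1 by 2.42, Fasl by 2.41, the activating receptor Klrk1 by 2.24, Cd7 by 1.80, granzyme A (Gzma) by 1.52, Ctsw by 1.33 and Eomes by 1.32. The cytotoxic effectors Gzmb and Prf1 had differences of -1.19 ± 0.52 and -0.53 ± 0.32, and Ncr1, a defining NK receptor, read 2.14 and 7.39 against 10.2 and 25.3. A second probe set of Prf1 had the opposite sign (0.94), at 17.8 and 25.4 in KSL and 6.61 and 9.43 in LinNeg. Of the 12 calls, 8 were kept whichever of the 4 arrays was left out. Eomes lost its call without each array (adjusted p from 0.082 to 0.18), Tbx21 without each but KSL replicate 2 (from 0.053 to 0.08) and Gzma without each but KSL replicate 1 (from 0.054 to 0.3). Cd7 read 11.0 and 87.2 in LinNeg and had an adjusted p of 0.43 without LinNeg replicate 2, and it lost its call without either KSL array too (0.078 and 0.19).

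T cell genes fell in 7 of 22 members, with none higher and a median of -0.66, and 7 were called without each of the 4 arrays. The receptor chains Cd3g (10.5 and 2.39 against 91.1 and 101) and Cd3d (3.48 and 1.00 against 58.6 and 79.2) fell by 3.03 and 3.07, Cd2 by 3.14, Bcl11b by 2.42, Cd247 by 2.30, Thy1 by 1.98 and Skap1 by 1.75. LinNeg stayed far below mature T cells here, since Cd3d read from 3151 to 3799 in the CD4T, CD8T and NKT arrays. Cd3e, among the lineage genes read at the start, was at 16.3 and 5.18 in KSL and 20.8 and 63.4 in LinNeg and did not pass (-1.40 ± 0.49, adjusted p = 0.092). Ms4a4b, a membrane protein of T and NK cells, read 42.1 and 16.2 against 669 and 872 (-4.52 ± 0.47, adjusted p = 1e-05). The summed intensity of the T cell list was 933 and 965 in KSL and 1508 and 1733 in LinNeg, and that of the NK list was 1818 and 1446 against 2977 and 3972. The part that lymphocytes in the LinNeg sort had in these falls was not tested.

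The GIMAP genes, neighbours in a cluster that encodes lymphocyte GTPases, went in both directions: 3 of 8 were higher in KSL and 2 lower. Gimap4 read 8.35 and 20.7 in KSL and 461 and 503 in LinNeg (-4.58 ± 0.23, adjusted p = 6.6e-10), and Gimap3 22.5 and 19.3 against 139 and 187 (-2.60 ± 0.30, adjusted p = 3.1e-05). In contrast, Gimap1 read 244 and 266 against 48.5 and 81.3 (1.91 ± 0.32, adjusted p = 0.00082). Gimap5 rose by 1.59 ± 0.27 and Gimap6 by 1.60 ± 0.30 (adjusted p = 0.00083 and 0.0021). All 5 calls were made without each of the 4 arrays. Gimap7, Gimap8 and Gimap9 did not pass, with differences of -0.83 ± 0.35, 0.08 ± 0.31 and 0.70 ± 0.24. In mature T cells all 5 called genes were bright, with Gimap4 at 5655 to 7177 and Gimap1 at 503 to 914 in the CD4T and CD8T arrays.

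**Figure D3:**
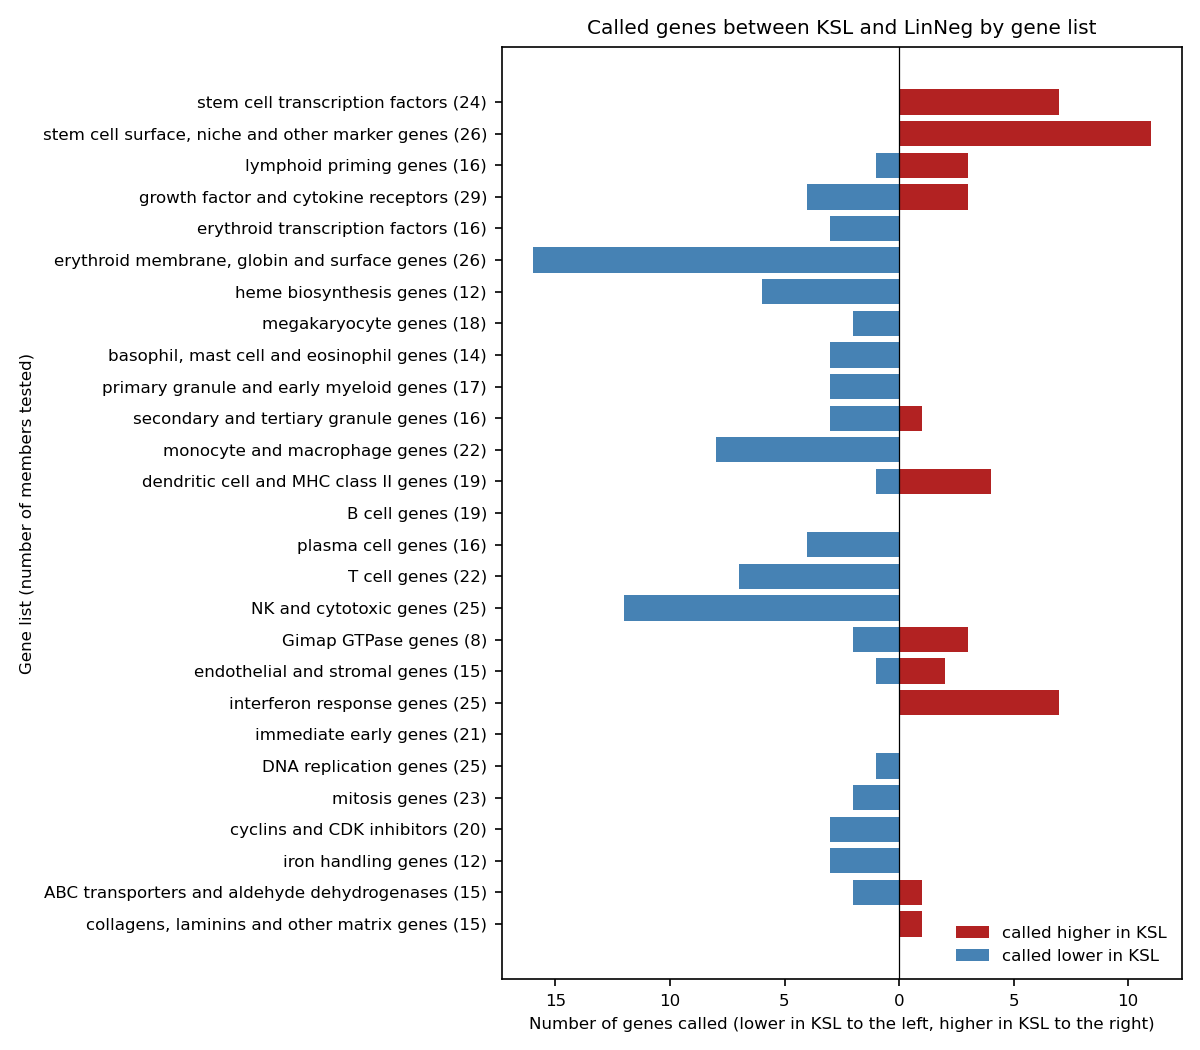
Number of genes called lower (blue, to the left) and higher (red, to the right) in KSL than in LinNeg for each of 27 gene lists, with the number of members tested in brackets. The longest bars are the 16 erythroid membrane genes and 12 NK genes on the lower side and the 11 stem cell marker genes on the higher side, where all genes tested gave 2.35% lower and 2.95% higher. The lists were chosen with earlier results of these data known, so the bars describe their members and test no list.

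Myeloid genes were lower in KSL where they passed, but many rested on few arrays. Of 17 genes of primary granules and early myeloid cells 3 were lower, with a median of -0.29. Elane, neutrophil elastase, read 432 and 51.4 in KSL and 1973 and 2551 in LinNeg (-3.82 ± 0.77, adjusted p = 0.0042), Ctsg 1767 and 462 against 3847 and 4151 (-2.13 ± 0.55, adjusted p = 0.021), and Ms4a3 158 and 57.3 against 789 and 1032 (-3.15 ± 0.36, adjusted p = 2.7e-05). KSL replicate 1 was the brighter KSL array in each, and without KSL replicate 2 only Ms4a3 was called (Elane adjusted p = 0.12, Ctsg 0.38). Ctsg lost its call also without LinNeg replicate 1 and LinNeg replicate 2 (adjusted p = 0.12 and 0.099). Mpo, myeloperoxidase, was bright throughout at 4960 and 2365 against 7036 and 6559 and did not pass (-0.99 ± 0.53, adjusted p = 0.31).

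Of 22 genes of monocytes and macrophages, 8 were lower in KSL, none higher, and the median was -1.35. F13a1, a coagulation factor of monocytes, read 239 and 35.5 in KSL and 1059 and 1002 in LinNeg (-3.35 ± 0.72, adjusted p = 0.0064). The differences were -3.37 for Lgals3, -2.58 for the NADPH oxidase subunit Cybb, -2.56 and -2.26 for the chemokine receptors Ccr2 and Cx3cr1, -1.64 for Ms4a6c and -1.57 for the factor Irf8. The lectin Clec7a read 54.3 and 30.4 against 162 and 101. Cybb and Ccr2 kept their calls without any of the 4 arrays. F13a1, Clec7a and Ms4a6c lost theirs without KSL replicate 2 (adjusted p = 0.17, 0.2 and 0.19) and LinNeg replicate 1 (0.062, 0.19 and 0.064). Irf8 and Cx3cr1 were called without KSL replicate 1 alone (adjusted p otherwise from 0.15 to 0.51 and from 0.053 to 0.24). Lgals3 lost its call without KSL replicate 1 and LinNeg replicate 2 (adjusted p = 0.064 and 0.095). The complement genes C1qa, C1qb and C1qc of macrophages were at 20.1 or less in all 4 arrays.

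Genes of late granules set LinNeg replicate 2 apart from the other 3 arrays. Chil3 read 1.05 and 1.31 in KSL and 1.11 and 591 in LinNeg, and S100a8, a calcium-binding protein of neutrophils, 14.6 and 31.7 against 21.7 and 1621. Camp, S100a9, Ngp and Lcn2 had the same shape, with 276, 288, 593 and 48.9 in LinNeg replicate 2 and at most 33.0 in the other arrays. In 10 of the 16 genes of secondary and tertiary granules LinNeg replicate 2 exceeded replicate 1 by at least 1, where 4.66% of all genes did. None of these 6 genes passed between the fractions (Chil3 -3.11 ± 1.28, adjusted p = 0.16). Called lower were Hp (62.5 and 12.1 against 299.8 and 481), Ltf and Adam8. Without LinNeg replicate 1 the lower calls of this list rose from 3 to 7, and they fell to 1 without each of the other arrays. Hp kept its call throughout, Adam8 was called in none of these fits (adjusted p from 0.059 to 0.31), and Ltf was called without LinNeg replicate 1 alone (adjusted p otherwise from 0.1 to 0.36). The summed intensity of the list was 428 and 395 in KSL and 541 and 4290 in LinNeg. In the Neutrophil arrays Chil3 read 10604 and 9774. Padi4, a histone deiminase that is bright in neutrophils, was the exception and higher in KSL, at 218 and 231 against 25.8 and 47.0 (2.47 ± 0.38, adjusted p = 0.00043).

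Basophil, mast cell and eosinophil genes had a like pattern. Prg2, the eosinophil major basic protein, read 13.5 and 6.67 in KSL and 59.2 and 743 in LinNeg (-3.75 ± 0.91, adjusted p = 0.013). Mcpt8, a protease of basophils, read 63.7 and 28.8 against 96.6 and 794 (-2.52 ± 0.72, adjusted p = 0.036), and Hdc, which makes histamine, 53.9 and 3.63 against 157 and 334 (-3.23 ± 0.56, adjusted p = 0.0013). LinNeg replicate 2 was the highest array in all 3, and in 11 of the 14 members it exceeded replicate 1 by at least 1. Without LinNeg replicate 2 only Hdc was called, and Prg2 and Mcpt8 had adjusted p = 0.22 and 0.45. Without KSL replicate 2 these were 0.13 and 0.3, and Mcpt8 had 0.054 without KSL replicate 1. The summed intensity of the list was 2317 and 961 in KSL and 1422 and 3926 in LinNeg. What part these cells had in the differences between the fractions was not tested.

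Megakaryocyte genes, which stem cells partly share, had 2 of 18 members lower and a median of 0.24. Pf4, platelet factor 4, read 739 and 375 in KSL and 1209 and 1760 in LinNeg (-1.46 ± 0.42, adjusted p = 0.038), and Clec1b fell by 1.31 ± 0.39 (adjusted p = 0.044). Neither was called without KSL replicate 2 (adjusted p = 0.41 and 0.27), LinNeg replicate 1 (0.098 and 0.11) or LinNeg replicate 2 (0.23 and 0.24), nor Clec1b without KSL replicate 1 (adjusted p = 0.1). Itga2b, the integrin CD41, read 634 and 408 against 313 and 447 (0.44 ± 0.37, adjusted p = 0.58), overlapping between the fractions.

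Among genes of dendritic cells and MHC class II, 4 of 19 were higher in KSL and 1, Zbtb46, lower. H2-Aa, a class II chain, read 230 and 225 in KSL and 29.8 and 57.1 in LinNeg (2.28 ± 0.55, adjusted p = 0.014). H2-DMa, which loads class II with peptide, rose by 1.06 ± 0.27, and the factor Tcf4 by 1.24 ± 0.35 (adjusted p = 0.02 and 0.036). The class II chains H2-Ab1 (166 and 125 against 17.2 and 120) and H2-Eb1 did not pass, and the plasmacytoid marker Siglech was at 24.4 or less in all 4 arrays. None of the 4 rises was called without KSL replicate 1, KSL replicate 2 or LinNeg replicate 1 (H2-Aa adjusted p = 0.066, 0.096 and 0.17), and of the 4 only H2-Aa was called without LinNeg replicate 2. Zbtb46 lost its call without KSL replicate 1 and without LinNeg replicate 1 (adjusted p = 0.16 and 0.17).

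In 15 genes of endothelial and stromal cells, 2 were higher in KSL, the shared stem cell genes Tie1 and Emcn, and 1, Plvap, was lower. Emcn and Plvap lost their calls without KSL replicate 2 (adjusted p = 0.29 and 0.28), LinNeg replicate 1 (0.26 and 0.15) and LinNeg replicate 2 (0.095 and 0.082), and Emcn also without KSL replicate 1 (0.084). The endothelial genes Pecam1 and Kdr read 57.2 or less in all 4 arrays, and the summed intensity of the list was 631 and 707 in KSL and 493 and 583 in LinNeg. Of 15 ABC transporters and aldehyde dehydrogenases, the families behind dye efflux and Aldefluor staining of stem cells, the cholesterol exporter Abcg1 was higher (1.00 ± 0.22, adjusted p = 0.0073) and 2 were lower. Abcg1 had an adjusted p of 0.059 without KSL replicate 2 and of 0.16 without LinNeg replicate 1, and its difference was 0.97 without KSL replicate 1. Abcb4 read 250 and 167 in KSL and 1433 and 1059 in LinNeg (-2.55 ± 0.31, adjusted p = 5.6e-05), and Aldh1a7 25.2 and 6.37 against 360 and 540 (-4.45 ± 0.67, adjusted p = 0.00035). Abcg2, the pump that defines the side population, read 415 and 469 in KSL and 531 and 579 in LinNeg (-0.33 ± 0.24, adjusted p = 0.51).

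Cell cycle genes differed little one by one but leaned to LinNeg. Of 25 DNA replication genes 1 was lower in KSL and none higher (median -0.37), with both KSL arrays below both LinNeg arrays in 17, where 25.7% of all genes had that order. Of 23 mitosis genes 2 were lower and none higher (median -0.42), with 14 in that order. Rrm2, the ribonucleotide reductase subunit, read 754 and 677 in KSL and 1649 and 2286 in LinNeg (-1.43 ± 0.34, adjusted p = 0.013). Ccna2 read 423 and 273 against 795 and 814 (-1.23 ± 0.24, adjusted p = 0.0037), and the centromere histone Cenpa fell by 1.58 ± 0.23 (adjusted p = 0.00034) with a second probe set at 0.55. Rrm2 and Ccna2 were not called without KSL replicate 2 (adjusted p = 0.12 and 0.098), nor Rrm2 without LinNeg replicate 2 (adjusted p = 0.11).

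Cyclin E stood apart from this shallow shift. Ccne1, which drives entry into S phase, read 184 and 126 in KSL and 1399 and 1217 in LinNeg (-3.04 ± 0.23, adjusted p = 1.3e-07), and its call held without any of the 4 arrays. Its level in the Erythroblast arrays was 2366 and 3210, and in every other mature array it was 327 or less. Ccne2 (-1.34 ± 0.39, adjusted p = 0.038) and E2f2 (-1.03 ± 0.30, adjusted p = 0.041) were the other falls among 20 cyclins, E2F factors and CDK inhibitors, and both lost their calls without KSL replicate 1 (adjusted p = 0.22 and 0.1), KSL replicate 2 (0.094 and 0.23) and LinNeg replicate 2 (0.29 and 0.55). Ccne2 was not called without LinNeg replicate 1 either (adjusted p = 0.052). The proliferation antigen Mki67 read 1854 and 1169 against 1572 and 2419, overlapping between the fractions. The inhibitors of quiescent stem cells did not pass, with Cdkn1c at a mean of 61.7 ± 16.5 (SD, n = 2) against 24.1 ± 18.4 (1.27 ± 0.48, adjusted p = 0.12) and Cdkn1b at 0.15 ± 0.20, while Cdkn2d passed the p threshold with a difference of 0.80 ± 0.17.

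Interferon response genes were higher in KSL in 7 of 25 members, none was lower, and the median was 0.65. These genes are induced by interferon and act against viruses and other intracellular pathogens. Oas3, an antiviral synthetase, read 62.6 and 75.6 in KSL and 8.63 and 11.5 in LinNeg (2.17 ± 0.38, adjusted p = 0.0012). Iigp1, a GTPase against intracellular parasites, read 364 and 356 against 94.1 and 93.4 (1.87 ± 0.38, adjusted p = 0.0044), and Ifit1 170 and 121 against 40.6 and 37.8 (1.71 ± 0.36, adjusted p = 0.0055). The groups did not overlap, and the pairs were tight. Oasl2 rose by 1.85, Gbp2 by 1.55, Oas2 by 1.45 and Rsad2 by 1.31. Members that did not pass included Irf7 (0.51 ± 0.31), Usp18 (0.23 ± 0.37) and Mx1 (0.59 ± 0.46). The count was 3 without KSL replicate 2 and 5 or 6 without any of the other arrays, and Oas3 and Iigp1 kept their calls throughout. Without KSL replicate 2 the lost calls were Gbp2, Oasl2, Oas2 and Rsad2 (adjusted p from 0.055 to 0.081). Ifit1 lost its call without KSL replicate 1 (adjusted p = 0.062), Oas2 without LinNeg replicate 2 (0.085), and Rsad2 without KSL replicate 1 and LinNeg replicate 1 (0.098 and 0.15). KSL was not the highest population for these genes. Oas3 read from 126 to 591 in the Erythroblast, Neutrophil and Monocyte arrays and Iigp1 496 and 863 in the CD4T arrays.

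The promoters of Oas3 and Ifit1 are shown because they hold the core of the interferon-stimulated response element (GAAA, any 2 bases, GAAA) in capitals on either strand, in the 250 bases before the gene start (RefSeq, GRCm38.p6).
Oas3: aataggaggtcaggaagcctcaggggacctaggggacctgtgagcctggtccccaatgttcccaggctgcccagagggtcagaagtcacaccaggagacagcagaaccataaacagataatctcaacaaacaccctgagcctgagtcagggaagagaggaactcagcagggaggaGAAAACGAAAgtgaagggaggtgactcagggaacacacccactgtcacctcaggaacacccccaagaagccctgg
Ifit1: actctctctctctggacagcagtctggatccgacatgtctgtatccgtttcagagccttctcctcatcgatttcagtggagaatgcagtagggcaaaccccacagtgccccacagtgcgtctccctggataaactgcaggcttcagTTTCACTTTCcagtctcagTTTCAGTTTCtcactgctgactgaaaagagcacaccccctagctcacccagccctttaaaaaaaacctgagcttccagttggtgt
They lie at chr5:120777660-120777909 on the minus strand and chr19:34640639-34640888 on the plus strand. The Oas3 match begins 75 bases before the gene start, and the 2 matches of Ifit1 begin 104 and 85 bases before it. In the window of 300 bases around the start, 3.99% of genes hold the motif, against 14 of 22 interferon response genes with a promoter (63.6%). It was in 4 of 5 called members and in 9 of 15 that were tested and not called. The motif was thus frequent in both groups. With 5 called members and no test, the counts cannot show whether it separates them.

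A different set of genes separated the replicates rather than the fractions. Between the KSL arrays 932 genes differed by at least 1 (6.64%), 538 with replicate 1 higher (3.83%) and 394 with replicate 2 higher (2.81%). Between the LinNeg arrays 1013 did (7.21%), 358 with replicate 1 higher (2.55%) and 655 with replicate 2 higher (4.66%). These compare single arrays and carry no test. In the other 8 populations the share ran from 5.87% in NK to 13.5% in Erythroblast, and NK alone was below KSL and LinNeg. Of 199 genes split in both fractions, 73 (0.520% of all) had replicate 1 higher in both, 64 (0.456%) had replicate 2 higher in both, and 62 went opposite ways.

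Immediate early genes, which cells transcribe within minutes of a stimulus, were the clearest of these. KSL replicate 1 exceeded replicate 2 by at least 1 in 19 of 21, with a median of 2.87, and LinNeg replicate 1 exceeded replicate 2 in 14 of 21, with a median of 2.11. None was split the other way. Fos read 5896 and 80.3 in KSL and 4963 and 65.8 in LinNeg, its partner Jun 896 and 21.0 against 790 and 10.3, and the phosphatase Dusp1 3456 and 264 against 2909 and 98.9. Zfp36, which destabilises cytokine messages, read 1623 and 83.2 in KSL and 787 and 60.8 in LinNeg, and the nuclear receptor Nr4a1 1581 and 42.1 against 327 and 42.2. Both replicate 1 arrays were thus high and both replicate 2 arrays low, with the fractions overlapping in every member. The summed intensity of the list was 27820 and 3545 in KSL and 18370 and 3102 in LinNeg.

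None of the 21 was called between KSL and LinNeg with limma, and 2 of them had an unadjusted p under 0.05. Fos had a difference of 0.25 ± 1.76. Without KSL replicate 2 limma called 4 of them higher, and without KSL replicate 1 it called 1 lower, so their direction between the fractions depended on which array was left out. The Gapdh and Actb 3′ to 5′ ratios were also higher in both replicate 1 arrays (Actb 2.72 and 2.35 in KSL, 2.66 and 2.45 in LinNeg), and their part in the split was not tested. In the mature populations the median replicate difference of these genes lay between -0.75 and 0.47. Fos differed between replicates elsewhere too, at 253 and 3021 in NK and 277 and 2306 in B, with replicate 2 the higher array.

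**Figure D4:**
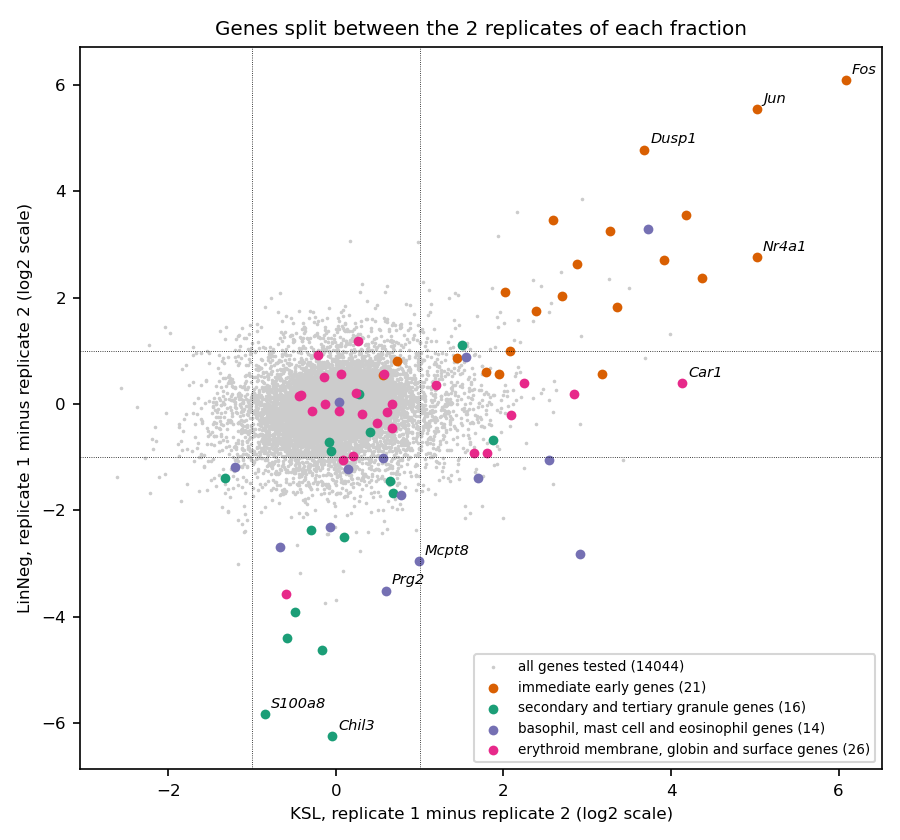
Difference between replicate 1 and replicate 2 on the log2 scale in KSL (x axis) and in LinNeg (y axis) for 14044 genes (grey) and 4 gene lists (colours), with dotted lines at 1 and -1. Immediate early genes lie at the upper right, led by Fos, Jun and Dusp1, late granule genes such as Chil3 and S100a8 at the bottom, and erythroid genes such as Car1 at the right.

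Zfp36 is 1 of only 2 immediate early genes of 17 with a promoter whose window holds a CArG box, the element bound by serum response factor, against 1.81% of all genes. Its 250 bases before the gene start (RefSeq, GRCm38.p6, chr7:28379229-28379478, minus strand) are printed with that box in capitals, 58 bases before the start.
Zfp36: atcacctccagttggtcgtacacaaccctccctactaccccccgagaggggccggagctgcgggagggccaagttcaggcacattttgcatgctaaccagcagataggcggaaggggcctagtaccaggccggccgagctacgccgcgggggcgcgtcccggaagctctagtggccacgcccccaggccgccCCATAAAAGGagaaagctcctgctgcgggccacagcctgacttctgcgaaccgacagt
The other is Egr2. No match says only that the letters are not in this window.

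Erythroid genes were split in one direction in KSL. KSL replicate 1 exceeded replicate 2 by at least 1 in 7 of the 26 erythroid membrane genes, where 3.83% of all genes did, and replicate 2 exceeded replicate 1 in none. In LinNeg replicate 1 exceeded replicate 2 by at least 1 in 1 of the 26 and replicate 2 exceeded replicate 1 in 2. Car1 in KSL differed by 4.13, Tspo2 by 2.84, Ermap by 2.25, Kel by 2.09 and Cldn13 by 1.81, and the factor Klf1 by 2.26. The same array was higher in 8 of 22 monocyte genes, 5 of 17 primary granule genes and 5 of 14 basophil and mast cell genes. Matched by number, Car1 was lower in KSL by 2.96 in replicate 1 and by 6.70 in replicate 2, Klf1 by 3.03 and 4.95, and Elane by 2.17 and 5.46. Of the 330 genes called lower, 49 had KSL replicate 1 higher than replicate 2 by at least 1. Both same-numbered differences reached 1 in size in 264 of the 330 lower calls and in 327 of the 415 higher calls. The part that committed progenitors in the KSL replicate 1 sort had in this was not tested.

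The mature arrays show where the called genes are otherwise bright. Their levels did not enter the differences, but they shared in the spread, the choice of probe set and the filter. Of the 330 genes lower in KSL, 158 (47.9%) had their highest mature level in Erythroblast, against 28.2% of all genes tested. Of the 415 higher in KSL, 10.4% did, while Neutrophil held 20.7% of them (15.6% of all) and NK 14.9% (6.72% of all). KSL exceeded every mature population in 192 of the 415 genes called higher (46.3%), against 17.0% of all genes. The genes called higher were chosen for their KSL levels, so part of that excess is built into the choice. LinNeg exceeded every mature population in 54 of the 330 genes called lower (16.4%), against 15.6% of all genes. These are counts without a test.

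**Figure D5:**
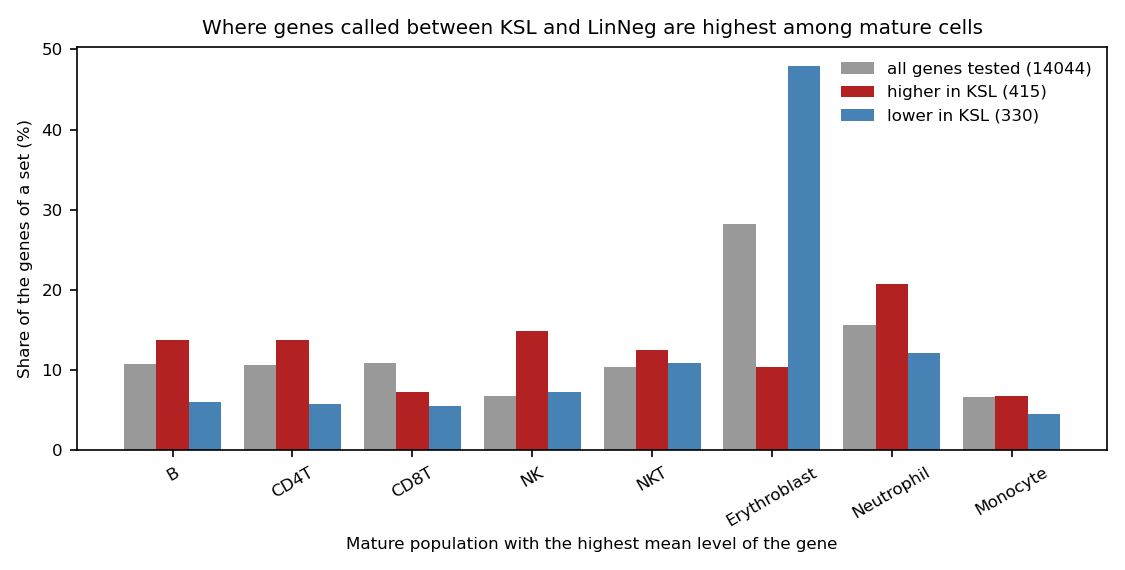
Share (%) of all 14044 genes tested (grey), of the 415 genes higher in KSL (red) and of the 330 lower in KSL (blue) whose highest mean level among the 8 mature populations lies in the population named on the x axis. Erythroblast holds 47.9% of the genes lower in KSL and 10.4% of those higher, against 28.2% of all genes.

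Other probe sets of the same genes were set beside the ones used. They were read on the same arrays, so they bear on the probe sets and not on the replicates or the sort. Of 224 genes higher in KSL with a second probe set, 204 (91.1%) had the same sign there, and of 152 genes lower in KSL, 144 (94.7%). Over all 6504 genes with another probe set the share was 68.8%. That share includes the many genes with small differences, whose sign is less certain, so a higher share among called genes is partly built in. The median difference in the other probe sets was 0.98 for the higher and -1.05 for the lower genes. The second probe sets of Epb42, Cx3cr1 and Cd247, called lower here, read 5.73 or less in all 4 arrays and differed by -0.05, -0.11 and -0.01.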

How the data were processed

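The deposited table gives linear probe set intensities, 1 value per probe set for each of 20 arrays, and which software summarised them is not given in the sources used here. Deposited intensities share a trimmed mean of 100 per array (2% left off at each end), so they came scaled, and that scaling was kept. Scaling of this kind hides a change in total RNA per cell. Amplification in 2 cycles enriches 3′ ends.

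The deposited values were turned into log2(intensity + 6.75), where 6.75 is their 25th percentile. Out of 45101 probe sets 64 controls were dropped, and the platform annotation gave 1 gene symbol to 34945, several to 932 and none to 9160. Only probe sets with 1 symbol were used. Symbols were looked up in RefSeq (GRCm38.p6), where 0 changed and 204 found no entry. Each of 18193 genes was represented by the probe set with the highest mean log2 value over the 20 arrays. A gene was tested if at least 1 population mean exceeded the overall median (log2 value 4.89), which 14044 genes met. Groups and replicate numbers came from the sample titles.

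All 20 arrays entered one model with 10 populations in limma 3.58.1 (lmFit and eBayes with a trend, R 4.3.3; 10 residual and 8.46 prior degrees of freedom), since each fraction has 2 arrays. Adjusted p-values are Benjamini-Hochberg values over the 14044 genes, and calls needed a value under 0.05 together with a log2 difference of 1 or more in size. The script was tested on simulated data. The number of arrays limits the precision. The alternatives were the 4 arrays alone, quantile normalization, median centring, other pseudocounts and filters, the mean of a gene's probe sets, a test against a difference of 1, a replicate block and leaving out each array.

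Genes were named where they belonged to 27 lists by role, to the sort markers, to the 15 largest rises and falls with a mean above that median and no overlap between the fractions, or to the 8 largest splits in each direction between replicates. The members and lists were chosen with earlier results of these data known.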

Additional observations from a re-analysis of the deposited data

How the results depend on the processing

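No called gene changed sign under any alternative. The count of 745 called genes (415 higher and 330 lower in KSL) was 737 with only the 4 arrays in the model, 743 after quantile normalization, 715 after median centring, 674 without the filter and 685 with a filter at the 75th percentile. Averaging the probe sets of a gene gave 632. With the pseudocount at the 5th percentile there were 550 calls, 269 of them higher, and 4 stem cell transcription factors were called. Testing against a difference of 1 in place of 0, a stricter question by construction, left 68 genes, 9 higher and 59 lower. Of the lists it left 0 stem cell transcription factors, 1 stem cell marker gene, 10 erythroid membrane genes, 2 NK genes and 0 interferon response genes. Leaving out 1 array gave from 294 to 660 calls, from 115 to 400 higher and from 179 to 307 lower. Stem cell transcription factors then had from 2 to 7 calls, stem cell marker genes from 3 to 10 and interferon response genes from 3 to 6, with the lowest counts without KSL replicate 2 or LinNeg replicate 1; the cause was not tested.

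Of 139 called genes among the lists and the named genes, 62 lost their call without KSL replicate 2, 50 without LinNeg replicate 1, 30 without LinNeg replicate 2, 27 without KSL replicate 1 and 28 with the low pseudocount. The counts of genes split between replicates depended on how dim genes were treated. The KSL count of 932 was 1637 with the pseudocount at the 5th percentile, 225 at the 50th, 1425 without the filter, 359 with the filter at the 75th percentile and 598 with probe sets averaged, and the LinNeg count of 1013 was 1736, 228, 1549 and 386 for the first 4 of these.

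The labels do not say that replicates with one number share an animal or day, and with 2 pairs the numbers cannot be shown to pair the samples. Across genes, the deviations of same-numbered KSL and LinNeg arrays correlated with r = 0.206. With the replicate number as a block, 748 genes were called with 20 arrays (419 higher and 329 lower) and 995 with the 4 arrays alone (599 and 396). That last fit called 3 immediate early genes higher and 1 lower in KSL, where the block with 20 arrays called 0, as without a block.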

Other observations

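Several of the largest falls in KSL lay outside the gene lists. Sphk1, a kinase that makes sphingosine 1-phosphate, read 68.8 and 9.76 in KSL and 1241 and 814 in LinNeg (-4.84 ± 0.56, adjusted p = 3.1e-05), and 1015 and 982 in Erythroblast. Slc38a5, an amino acid transporter, read 43.6 and 1.37 against 479 and 398 (-4.46 ± 0.56, adjusted p = 7e-05), and 3139 and 2712 in Erythroblast. Nxpe2 read 16.5 and 1.07 against 246 and 281 (-4.32 ± 0.56, adjusted p = 8.5e-05), and 4837 and 3975 in Erythroblast. Mt2, a metal-binding metallothionein, read 336 and 19.8 against 2630 and 1443 (-4.36 ± 0.72, adjusted p = 0.00082), and unlike these 3 it was at 133 or less in every mature array. These 4 calls held under every alternative that was run.

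Some of the widest splits between replicates were in genes of no list. Mid1, a ubiquitin ligase, read 368 and 42.2 in KSL and 564 and 32.8 in LinNeg, the order of the immediate early genes. The heat shock gene Hspa1b read 111 and 19.6 against 469 and 32.1, the ubiquitin editor Tnfaip3 356 and 177 against 1118 and 129, and the nuclear receptor Nr4a2 263 and 10.3 against 81.3 and 28.5. In the opposite order, the peptide transporter Slc15a2 read 53.5 and 273 in KSL and 31.6 and 116 in LinNeg. The histone methyltransferase Ezh1 read 68.5 and 235 against 81.6 and 129, and Lyrm2 110 and 313 against 80.1 and 125. Second probe sets read 58.6 and 33.3 in KSL for Slc15a2, 18.8 and 22.7 for Ezh1 and 81.1 and 92.4 for Lyrm2. They thus did not show the KSL splits of these genes. The second probe set of Hspa1b kept replicate 1 higher in both fractions, at 37.0 and 15.5 in KSL and 219 and 17.6 in LinNeg. That of Nr4a2 kept the split in KSL (163 and 25.5), while its LinNeg values were close, at 27.4 and 24.2. None of these 7 genes passed between the fractions. Ddx4, an RNA helicase of germ cells, was split in KSL (101 and 273) and still higher than in LinNeg (22.2 and 36.9; 2.29 ± 0.52, adjusted p = 0.0091), though not without KSL replicate 2 (adjusted p = 0.2) or LinNeg replicate 1 (adjusted p = 0.12). Hacd4, which elongates fatty acids, read 131 and 337 against 29.8 and 57.1 (2.17 ± 0.45, adjusted p = 0.0051), and was not called without the same arrays (adjusted p = 0.14 and 0.099). Fn1, fibronectin, read 319 in LinNeg replicate 2 and 30.2 or less in the other 3 arrays of both fractions, and did not pass (-1.88 ± 0.70, adjusted p = 0.11).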
